A study of Mus musculus with 9 samples.

Results

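The nuclear-encoded subunits of the mitochondrial respiratory chain were examined in mouse colon. They are the proteins of complexes I to V whose genes lie in the nucleus. Members were taken by symbol: names beginning with Nduf followed by a, b, c, s or v and a number, Cox4 to Cox8 followed by a letter, Uqcr or Atp5, together with Cyc1 and Sdha to Sdhd. Of 54491 rows of the deposited table, 98 matched, 8 of them with a suffix that marks a pseudogene symbol were left out, and 90 were kept. They comprise 38 genes of complex I, 4 of complex II, 9 of complex III, 21 of complex IV and 18 of complex V. Ndufa4 and Ndufa4l2 carry complex I names and were counted with complex IV, in which the NDUFA4 protein is now placed.

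The respiratory chain sits in the inner mitochondrial membrane. Complexes I and II pass electrons from NADH and succinate to ubiquinone, complex III passes them to cytochrome c, complex IV passes them to oxygen, and complex V uses the resulting proton gradient to make ATP. Mitochondrial DNA encodes a small set of the subunits, and the nuclear genes encode the others, among them the catalytic core of the peripheral arms and many small accessory subunits. Colonocytes of the surface epithelium are known for burning short-chain fatty acids made by gut bacteria.

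RNA was sequenced from colon of C57BL/6 mice at postnatal day 98, from a study of 45 mice divided at 6 weeks of age into 3 groups of 15. The groups were a control, a high-fat diet (HFD) and the high-fat diet with Papillibacter cinnamivorans, a gut bacterium given by tube into the stomach. The libraries analysed are 3 of control (replicates 1, 2 and 3), 3 of HFD (1, 2 and 4) and 3 of HFD with the bacterium (1, 3 and 4), and values are printed in this order. The labels name gavage only in the group with the bacterium, so the procedure and the bacterium cannot be told apart. They state neither the composition of the control diet nor the stretch of colon taken. They do not say that each library is a separate mouse, so p-values measure the spread between libraries, which may be technical. Values are FPKM as the authors deposited them, that is, fragments normalised for transcript length and for a library size. Their sums ran from 348689.5 in HFD replicate 2 to 454535.4 in control replicate 2. Size factors from the median ratio of genes between libraries were nevertheless 0.9987 to 1.0013. The deposited values were thus already scaled to hold the typical gene level between libraries, and not by total fragments alone. Differences were tested with limma on log2(FPKM + 1) over 17907 genes, with all 9 libraries in 1 fit, and calls were made below an adjusted p of 0.05. All log2 differences are on that scale, on which changes of low-level genes come out too small.

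Of the 90 members, 85 had at least 0.5 FPKM in at least 3 libraries and were tested. Cox7b2 and Cox8c, isoforms of the testis, and a second gene model of Atp5o were listed at 0 in every library. Cox6a2, the isoform of heart and skeletal muscle, had a mean of 0.233 FPKM over the 9 libraries, and Ndufa11b had 0.0635 FPKM. By the annotation, 4 members are processed pseudogenes (Ndufa11b, Ndufb4c, Ndufs6b and Cox6c2), and 3 of these were tested, with mean levels under 5 FPKM. Atp5s encodes coupling factor B, which is no structural subunit of complex V. Subunits outside the naming rule were not counted: Usmg5 of complex V measured 43.4, 87.6 and 94.5 in control, 53.4, 66.7 and 53.1 in HFD and 70.1, 63.9 and 78.5 FPKM in HFD with the bacterium, and Ndufb1-ps, a gene with a pseudogene suffix at the level of the members, measured 42.6, 60.5 and 65.4 in control, 47.6, 61.2 and 65.5 in HFD and 93.9, 59.7 and 67.1 FPKM in HFD with the bacterium. Neither of them was called in any comparison (limma adjusted p from 0.4 to 0.99).

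Levels of FPKM, which are per length of transcript, differed widely between subunits of the same complex. The members above 0 had a median of 54.1 FPKM in complex I, 92.3 in complex II, 136 in complex III, 95.2 in complex IV and 97.6 in complex V, each as a mean over the 9 libraries. The highest of all was Cox6a1, the ubiquitous form of a small complex IV subunit, at 792, 1304 and 1459.9 in control, 975, 1105 and 1071 in HFD and 1004, 927 and 1067 FPKM in HFD with the bacterium. In complex III the highest was Uqcr10 (396 FPKM over the 9 libraries), in complex V Atp5a1, the alpha subunit of its catalytic head (372), in complex II Sdhd, which anchors the complex in the membrane (152), and in complex I Ndufa1, a small membrane subunit (136). The 6 complex IV genes above 0 with means under 10 FPKM were isoform, paralog or pseudogene copies: Cox4i2, Cox6a2, Cox6b2, Cox8b, Cox6c2 and Ndufa4l2.

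The start regions of some of these genes hold letter patterns that the naming rule did not use, each present in a minority of the members. Promoter windows from 250 bases before to 50 bases after the gene start were taken from RefSeq (GRCm38.p6, another build than that of the deposited values), and 68 members had an entry. Motifs were searched on both strands. The NRF1 palindrome (GCGCA, any base, GCGC) was present in 17 of the 68 (25%), against 10.2% of the 11602 tested genes with an entry and 5.19% of all 27025 promoters. The YY1 motif AAGATGGC was in 10 (14.7%), against 4.78% of tested genes and 3.19% of all promoters. The ETS motif CCGGAAG was in 16 (23.5% against 18.1% and 9.93%), the NRF1 core TGCGCA, which can overlap the palindrome, in 18 (26.5% against 14.6% and 8.79%), the ERR motif TCAAGGTCA in 2 (2.94% against 0.328% and 0.466%) and CCAAT in 30 (44.1% against 42.1% and 41.1%). Among the 12 members with an entry that were called lower in HFD than in control, 3 held the palindrome, 3 the ETS motif and 2 the YY1 motif. Below are 4 of these 12, shown because they stand in the results that follow (Atp5k, Cox5b, Uqcr11) or hold both the palindrome and the YY1 motif (Ndufs6). Capitals mark matches to the palindrome, the core, the ETS motif or the YY1 motif, and a match describes letters only. Each is written 5′ to 3′ along the strand of the gene. Atp5k is from chr5:108434350-108434649, minus strand, Cox5b from chr1:36691237-36691536, plus strand, Ndufs6 from chr13:73328433-73328732, minus strand and Uqcr11 from chr10:80406772-80407071, minus strand.
Atp5k: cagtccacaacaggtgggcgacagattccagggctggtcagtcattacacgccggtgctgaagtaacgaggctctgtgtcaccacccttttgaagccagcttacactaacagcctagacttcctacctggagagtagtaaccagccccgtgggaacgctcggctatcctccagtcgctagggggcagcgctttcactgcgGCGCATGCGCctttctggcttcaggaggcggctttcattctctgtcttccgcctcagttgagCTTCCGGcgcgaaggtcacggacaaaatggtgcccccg
Cox5b: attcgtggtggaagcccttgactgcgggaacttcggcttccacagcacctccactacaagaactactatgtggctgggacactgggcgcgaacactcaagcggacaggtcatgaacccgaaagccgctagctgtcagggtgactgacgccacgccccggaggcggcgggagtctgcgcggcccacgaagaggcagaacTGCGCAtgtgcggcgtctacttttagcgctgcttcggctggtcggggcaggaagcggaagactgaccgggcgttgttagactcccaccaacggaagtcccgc
Ndufs6: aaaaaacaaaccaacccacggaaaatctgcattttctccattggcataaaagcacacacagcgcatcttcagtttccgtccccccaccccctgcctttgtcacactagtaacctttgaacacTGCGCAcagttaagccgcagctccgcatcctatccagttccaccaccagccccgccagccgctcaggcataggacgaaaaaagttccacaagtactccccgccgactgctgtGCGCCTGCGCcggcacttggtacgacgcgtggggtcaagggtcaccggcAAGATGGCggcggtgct
Uqcr11: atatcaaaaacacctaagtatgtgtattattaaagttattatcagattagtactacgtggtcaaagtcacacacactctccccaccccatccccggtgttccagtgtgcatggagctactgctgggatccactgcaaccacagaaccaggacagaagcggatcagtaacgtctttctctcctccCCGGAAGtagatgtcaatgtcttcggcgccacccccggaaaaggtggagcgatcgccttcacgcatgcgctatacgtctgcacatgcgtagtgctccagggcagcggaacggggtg

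The control libraries differed among themselves in the members more than the other groups did. The summed FPKM of the members was 8340, 12746 and 15159 in control, 8582, 9508 and 8769 in HFD and 9731, 9185 and 9246 in HFD with the bacterium. Control replicate 1 was thus below all other libraries and control replicate 3 above them. In 80 of the 85 tested members (94.1%) control replicate 1 was the lowest control, against 42.1% of all tested genes. The exceptions were 2 genes of complex I and 3 of complex IV. The same library held the most smooth muscle RNA: the summed FPKM of 5 smooth muscle markers (Myh11, Acta2, Des, Cnn1, Actg2) was 6614, 1804 and 1268 in control, 1409, 1352 and 1254 in HFD and 3064, 1704 and 1876 in HFD with the bacterium. The 5 epithelial markers (Epcam, Krt8, Krt20, Cdh1, Vil1) summed to 3071, 4891 and 5590 FPKM in control, 2756, 3157 and 2958 in HFD and 3639, 3450 and 2820 in HFD with the bacterium. These sums were highest in control replicates 2 and 3, as the members were, and Krt8 was their largest part. The markers differed: Cdh1 measured 198, 196 and 242 in control and 235, 254 and 235 FPKM in HFD, and Krt20 748, 898 and 1062 against 171, 209 and 172. Of the 5, 2 were called lower in HFD than in control and 1 higher with the bacterium than in HFD (limma). Markers of B and plasma cells summed to 872 to 1107 FPKM in HFD and 107 to 412 in the other libraries, and those of macrophages to 420.2 to 462 against 113 to 193. Adipocyte markers ranged from 5.67 to 482 FPKM, with control replicate 2 the highest. Markers of enteric neurons and glia summed to 80.4, 46.9 and 29.5 FPKM in control, 19.1 to 22.2 in HFD and 34.8 to 76.3 with the bacterium, with 1 of 5 called lower in HFD than in control and 2 higher with the bacterium than in HFD (limma). Skeletal muscle markers summed to 34.2 FPKM in control replicate 1, mainly Acta1 and Ckm (19.9 and 13.2 FPKM), and to 4.74 to 11.4 in the other libraries, and 1 was called lower in HFD than in control. Cardiac markers summed to 5.41 to 10.7 FPKM in control, 1.34 to 1.40 in HFD and 4.79 to 8.48 with the bacterium, with 1 called lower in HFD than in control and 1 higher with the bacterium than in HFD, and most of each sum was Myl7. The brown fat list summed to 0.836 to 1.90 FPKM in control, 0.0807 to 0.338 in HFD and 0.0861 to 1.26 with the bacterium, with Cidea up to 1.12 and Ucp1 at most 0.0348. Zic1 of that list, Myh4 of skeletal muscle and Tnp1 and Odf1 of male germ cells were listed at 0 in all 9 libraries. Homeobox genes of the posterior gut, chosen after their values were seen, differed between libraries. Hoxb13 measured 7.73, 0.0598 and 0.0898 in control, 118, 128 and 134 in HFD and 0.227, 2.15 and 0.0516 FPKM in HFD with the bacterium. Hoxa13 measured 25.998, 2.06 and 0.385 in control, 31.3, 34.1 and 35.96 in HFD and 6.20, 10.1 and 2.28 FPKM in HFD with the bacterium, so control replicate 1 lay near HFD for it and the other controls did not. Hoxd13 measured 0.450, 0 and 0.0266 in control, 86.0, 94.3 and 72.6 in HFD and 0, 0.0483 and 0.137 FPKM in HFD with the bacterium. For Hoxd13 and Hoxb13 control replicate 1 lay far below HFD. In bulk tissue, fewer cells of a type and less RNA per cell cannot be told apart, and the part of cell make-up, of colon position and of control replicate 1 in the differences below was not tested beyond the values given without that library.

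**Figure D1:**
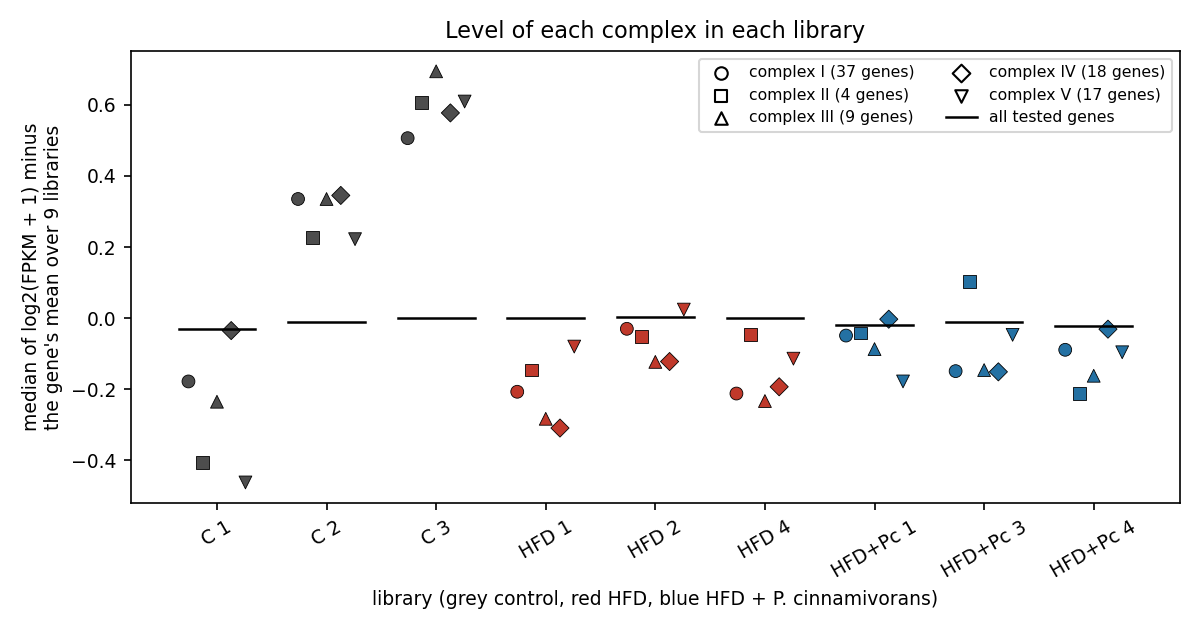
Median over the tested members of each complex of log2(FPKM + 1) minus the gene's mean over the 9 libraries, by library; symbols are complexes and the black line is the median of all tested genes. Control replicates 2 and 3 lie above 0 in each complex, with complex I at 0.34 and 0.51, and control replicate 1 lies below 0 in each complex, with complex V lowest.

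The bars of summed FPKM show the same order for the nuclear-encoded members and the epithelial markers in control, and another order for smooth muscle and for the subunits encoded in mitochondrial DNA.

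**Figure D2:**
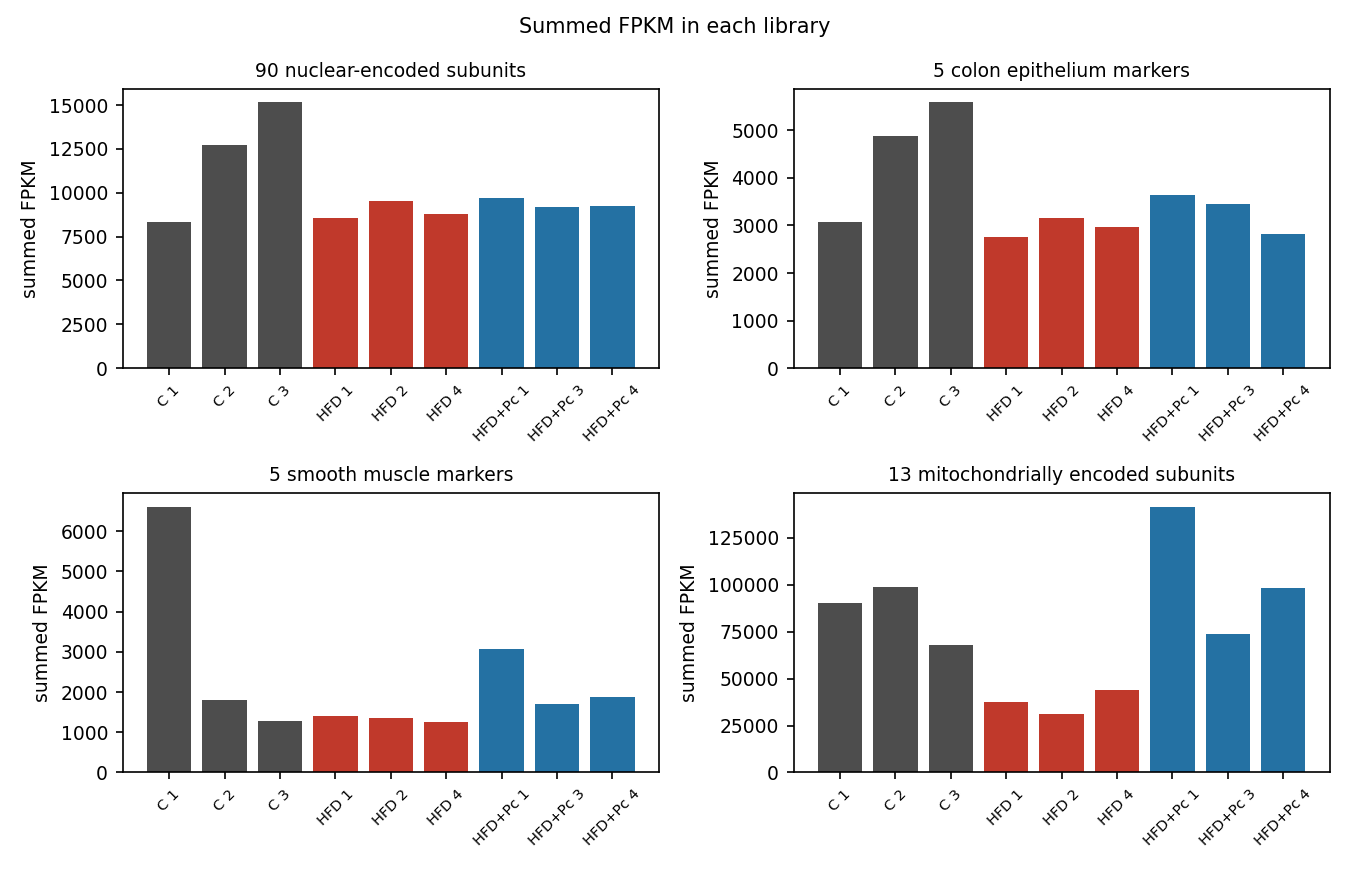
Summed FPKM in each of the 9 libraries (grey control, red HFD, blue HFD with P. cinnamivorans) of the 90 members, 5 epithelial markers, 5 smooth muscle markers and 13 mitochondrially encoded subunits. The members reach 15159 FPKM in control replicate 3, and the smooth muscle markers reach 6614 FPKM in control replicate 1.

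The comparison of HFD with control bears on how the diet group differed in these genes. Accessory subunits of complexes I, III and IV and 1 of complex V were lower in HFD. Of 85 tested members 15 were called lower (17.6%) and 0 higher, while of all tested genes 9.11% were called lower and 10.6% higher (limma). All tested genes include many at low levels. With the filter at 5 FPKM in 3 libraries, 15 members were called lower (19.5%) and 0 higher. Of all 8498 genes tested with that filter, 15.1% were called lower and 1035 higher. At an unadjusted p below 0.05 the counts were 29 lower and 0 higher, beside 6221 of all 17907 tested genes in either direction. The median log2 difference of the members was -0.35, beside 0.00 for all tested genes, and 77 of 85 were below 0. In each of the 3 comparisons, the median near 0 of all tested genes is largely set by the scaling of the deposited values. The medians of the members are therefore positions relative to other genes. In 19 members every HFD library was below every control library, a share of 22.4% beside 20.1% of all tested genes, and in 0 every HFD library was above, beside 21.9%. By complex, the called members were 9 of 37 in complex I (median -0.34), 0 of 4 in complex II (-0.17), 2 of 9 in complex III (-0.51), 3 of 18 in complex IV (-0.51) and 1 of 17 in complex V (-0.21). These differences between complexes were not tested. With each library scaled to the same FPKM sum, the median of all tested genes moved to 0.20 and that of the members to -0.10. Complexes II and V turned to 0.10 and 0.06, and 9 members (10.6%) were called lower and 1, Atp5s, higher. Of all 17986 genes tested with that scaling, 4.99% were called lower and 3375 higher. The counts depend on single libraries: without control replicate 1, 48 members were called lower (23, 1, 7, 12 and 5 of complexes I to V), beside 13.5% of all tested genes, and the median was -0.59. They were 9 (10.6%) without control replicate 2, beside 5.41% of all tested genes. Without HFD replicate 1 or 4 they were 7 (8.24%), beside 4.52% and 4.01%.

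**Figure D3:**
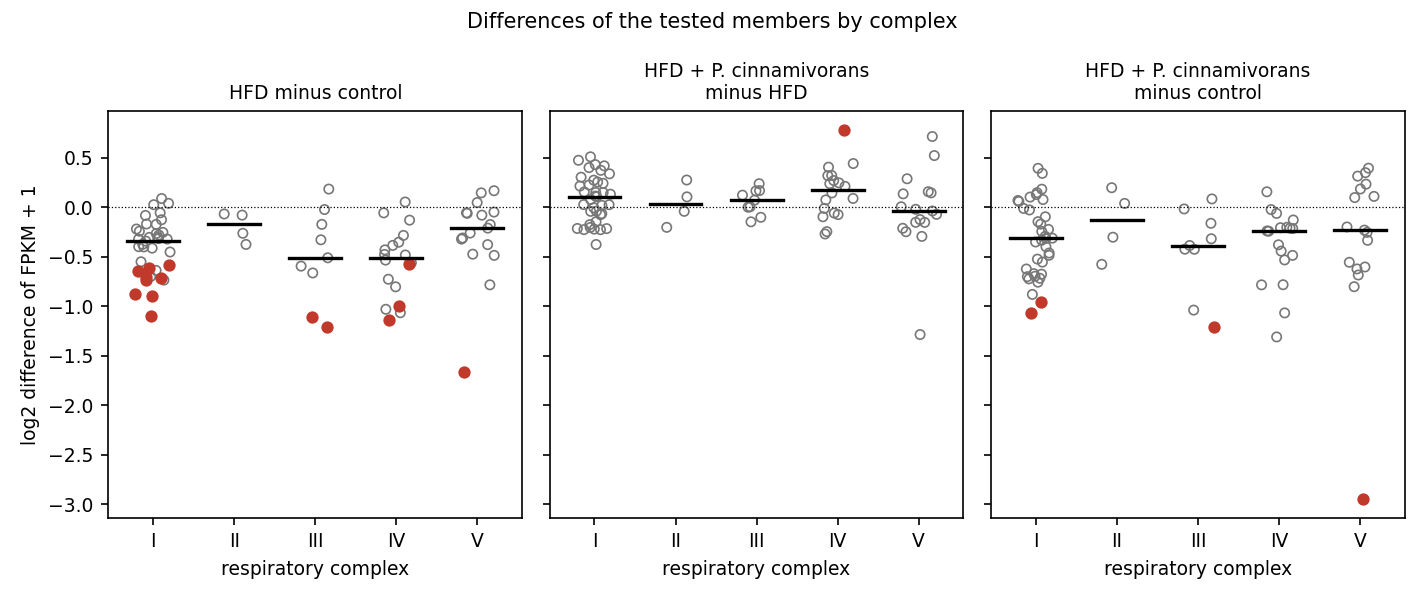
Log2 difference of FPKM + 1 for each tested member by complex, in the 3 comparisons; red points are called at a limma adjusted p below 0.05 and bars are medians. In HFD minus control 77 of 85 points lie below 0, and Atp5k at -1.67 and -2.95 is the lowest point of the panels against control.

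Complex I takes electrons from NADH through a peripheral arm, which holds the flavin and the iron-sulfur clusters, and pumps protons through a membrane arm. Its member with the largest difference was Ndufa2, an accessory subunit of the NADH-binding module. Ndufa2 measured 187, 172 and 200.02 in control, 75.9, 100.002 and 84.9 in HFD and 146, 92.8 and 105 FPKM in HFD with the bacterium. Each HFD library was below each control library, with a mean of 86.9 ± 12.2 against 186 ± 14.2 FPKM (SD, n = 3; -1.10 on the log2 scale with SE 0.19, adjusted p = 0.0052 by limma). Control replicate 1 was not the lowest control here. Ndufa3, a small membrane subunit, measured 62.7, 95.1 and 97.4 in control, 43.6, 53.5 and 37.8 in HFD and 39.6, 38.3 and 40.1 FPKM in HFD with the bacterium. It fell to 0.529 of the control mean (-0.89 on the log2 scale with SE 0.19, adjusted p = 0.014 by limma), and the libraries with the bacterium were about as low as those of HFD.

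Ndufb7, an intermembrane-space subunit of the membrane arm, measured 25.2, 31.1 and 31.6 in control, 15.1, 20.1 and 12.3 in HFD and 16.9, 15.2 and 18.6 FPKM in HFD with the bacterium, with no overlap between HFD and control (-0.87 on the log2 scale with SE 0.18, adjusted p = 0.011 by limma). Ndufv3, an accessory subunit next to the flavin protein, measured 30.5, 41.4 and 38.8 in control, 21.6, 24.7 and 18.7 in HFD and 20.5, 17.5 and 17.5 FPKM in HFD with the bacterium (-0.74 on the log2 scale with SE 0.15, adjusted p = 0.012 by limma). Its HFD libraries were all below its control libraries. Ndufs6, a zinc-binding subunit of the peripheral arm, measured 40.9, 43.3 and 48.8 in control, 25.8, 30.3 and 29.7 in HFD and 36.1, 32.5 and 31.5 FPKM in HFD with the bacterium (-0.61 on the log2 scale with SE 0.12, adjusted p = 0.0097 by limma), with the group with the bacterium between the other groups and overlapping neither. Ndufb3, of the membrane arm, fell from 48.3 ± 7.17 to 31.6 ± 1.58 FPKM (-0.59 on the log2 scale with SE 0.14, adjusted p = 0.019 by limma), and Ndufa1 from 179.5 ± 31.9 to 113 ± 7.74 FPKM (-0.64 on the log2 scale with SE 0.18, adjusted p = 0.035 by limma). The remaining called members of complex I, named after their values were seen, were Ndufb9, at -0.70, and Ndufs5, at -0.71, whose groups overlapped through control replicate 1. Ndufa1 was called in 8 of 19 alternative settings and Ndufb3 in 13, while Ndufa2 and Ndufb7 were called in all 19.

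In complex II, which is also an enzyme of the tricarboxylic acid cycle and is encoded wholly in the nucleus, 0 of 4 genes were called, and 0 had an unadjusted p below 0.05. Sdha, the flavoprotein, measured 48.9, 80.97 and 113 in control, 64.5, 62.9 and 63.5 in HFD and 58.6, 77.4 and 52.2 FPKM in HFD with the bacterium. Sdhb, the iron-sulfur subunit, measured 62.1, 134 and 156 in control, 98.8, 107 and 105 in HFD and 120.2, 120.4 and 137 FPKM in HFD with the bacterium. The membrane anchors Sdhc and Sdhd had means of 64.3 ± 16.7 and 190.1 ± 61.5 in control and of 60.1 ± 4.03 and 142 ± 5.58 FPKM in HFD. In Sdha, Sdhb and Sdhc all HFD libraries lay between control replicates 1 and 3, and in Sdhd they lay around control replicate 1. The log2 differences were -0.26, -0.08, -0.07 and -0.37, with SEs of 0.28, 0.30, 0.18 and 0.25.

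In complex III, which has 9 members here, log2 differences ranged from -1.21 to 0.19. Uqcr11, its smallest subunit, measured 116, 166 and 161 in control, 67.9, 65.6 and 54.3 in HFD and 68.1, 69.6 and 51.3 FPKM in HFD with the bacterium. All HFD and all bacterium libraries lay below the control libraries, and HFD reached 0.425 of the control mean (-1.21 on the log2 scale with SE 0.19, adjusted p = 0.0032 by limma). Uqcrq, known as a ubiquinone-binding subunit, measured 132, 201 and 222 in control, 85.2, 94.5 and 71.2 in HFD and 95.3, 91.9 and 76.4 FPKM in HFD with the bacterium (-1.11 on the log2 scale with SE 0.21, adjusted p = 0.0084 by limma), again with no overlap of HFD and control. Cyc1, cytochrome c1, which hands electrons to cytochrome c, measured 90.7, 167 and 215 in control, 118, 111 and 126 in HFD and 123, 145 and 131 FPKM in HFD with the bacterium and was not called (-0.33, limma adjusted p = 0.44). The spread of Cyc1 within control exceeded the difference between the groups. Uqcr10, the most abundant member of complex III, had means of 446 ± 103 and 389 ± 24.1 FPKM. Uqcrb had the largest difference of the complex between the bacterium and HFD groups (0.24) without a call.

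Complex IV, cytochrome c oxidase, has subunits that exist in tissue or stage isoforms. Cox5b, a zinc-binding subunit with no such isoform among the members, measured 105, 166 and 179 in control, 69.3, 71.8 and 56.8 in HFD and 76.4, 63.5 and 68.6 FPKM in HFD with the bacterium. HFD was at 0.440 of the control mean with no overlap (-1.14 on the log2 scale with SE 0.21, adjusted p = 0.0068 by limma). Of the Cox6b pair, Cox6b2, known as the testis form, measured 4.83, 3.39 and 3.58 in control, 1.64, 1.31 and 1.44 in HFD and 2.97, 2.98 and 3.80 FPKM in HFD with the bacterium. HFD was below all other libraries (-0.99 on the log2 scale with SE 0.15, adjusted p = 0.0023 by limma) at a level far under that of Cox6b1, the ubiquitous form, which measured 303, 474 and 568 in control, 275, 329.6 and 197 in HFD and 258, 236 and 261 FPKM in HFD with the bacterium (-0.73, limma adjusted p = 0.088). The germ cell markers summed to 0.214 to 0.834 FPKM, and Cox6b2 stood at 1.31 to 4.83 FPKM in the same libraries.

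Ndufa4 measured 88.3, 96.6 and 117 in control, 66.1, 70.3 and 64.8 in HFD and 82.7, 112 and 82.6 FPKM in HFD with the bacterium (-0.57 on the log2 scale with SE 0.16, adjusted p = 0.041 by limma). HFD overlapped neither of the other groups, and Ndufa4 was called in 7 of 19 alternative settings. Its paralog Ndufa4l2, a gene known to respond to hypoxia, was at 2.24 ± 0.515 FPKM in control and 1.31 ± 0.0566 in HFD, and it was not called (limma adjusted p = 0.069). Of the Cox4 pair, Cox4i1 measured 373, 702 and 872 in control, 348, 389 and 316 in HFD and 459, 406 and 405 FPKM in HFD with the bacterium (-0.80, limma adjusted p = 0.085), and Cox4i2, the form of lung and low oxygen, had means of 2.91 ± 0.980 and 2.70 ± 0.420 FPKM. Control replicate 1 lay within the HFD range for Cox4i1. Cox8a, the ubiquitous form of the smallest subunit, measured 573, 679.6 and 781 in control, 439, 408 and 529 in HFD and 589, 549.9 and 572 FPKM in HFD with the bacterium (-0.56, limma adjusted p = 0.062). Cox8b, known from heart and brown fat, had means of 4.48 ± 2.07 and 1.68 ± 0.946 FPKM (-1.03, limma adjusted p = 0.062).

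None of the Cox7a forms was called. Cox7a1, the heart and muscle form, had means of 33.7 ± 16.8 and 20.7 ± 2.98 FPKM, and Cox7a2, the widely expressed form, 254 ± 86.5 and 180.3 ± 11.6. Cox7a2l, known for a role in joining complexes III and IV into a supercomplex, had means of 116 ± 13.9 and 121 ± 7.13 FPKM. Whether it has that role in these mice was not examined. Cox7a2l was the single tested complex IV member with a difference above 0 (0.05). Cox7b had means of 286 ± 112 and 193 ± 12.7 FPKM (-0.48), and Cox6a1 of 1185 ± 349 and 1050.3 ± 67.2 (-0.13). The pseudogene copy Cox6c2 measured 3.31, 3.71 and 3.72 in control, 0.231, 1.45 and 2.47 in HFD and 2.17, 0 and 0.985 FPKM in HFD with the bacterium, and its difference (-1.06) was not called. Without control replicate 1, Cox4i1, Cox6b1, Cox7a1, Cox7a2, Cox7b, Cox8a and Cox8b were called lower in HFD.

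In complex V, ATP synthase, the called member was Atp5k, subunit e, which holds synthase dimers together in the membrane. Atp5k measured 136, 146 and 169 in control, 56.4, 77.7 and 22.5 in HFD and 20.3, 26.01 and 11.7 FPKM in HFD with the bacterium. Control libraries were all above those of both other groups, HFD was at 0.348 of the control mean (-1.67 on the log2 scale with SE 0.43, adjusted p = 0.027 by limma), and HFD replicate 4 lay within the range of the group with the bacterium. Of the 5 subunits of the catalytic head 0 were called (limma): Atp5a1 had means of 409 ± 174 and 369.6 ± 7.76 FPKM (-0.05), Atp5b, the beta subunit, 285 ± 107 and 257 ± 7.13 (-0.08), and Atp5c1, the rotating gamma subunit, 219.7 ± 72.1 and 233 ± 9.45 (0.15). The last 2 genes and the choice of the head as a group came after values were seen. The Atp5k call was lost without control replicate 2 or 3, without HFD replicate 1 or 4 and without a filter on low values (limma adjusted p up to 0.069).

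The plot of the 15 called members by library shows HFD below control in each panel, with Ndufs5 the gene whose groups overlap.

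**Figure D4:**
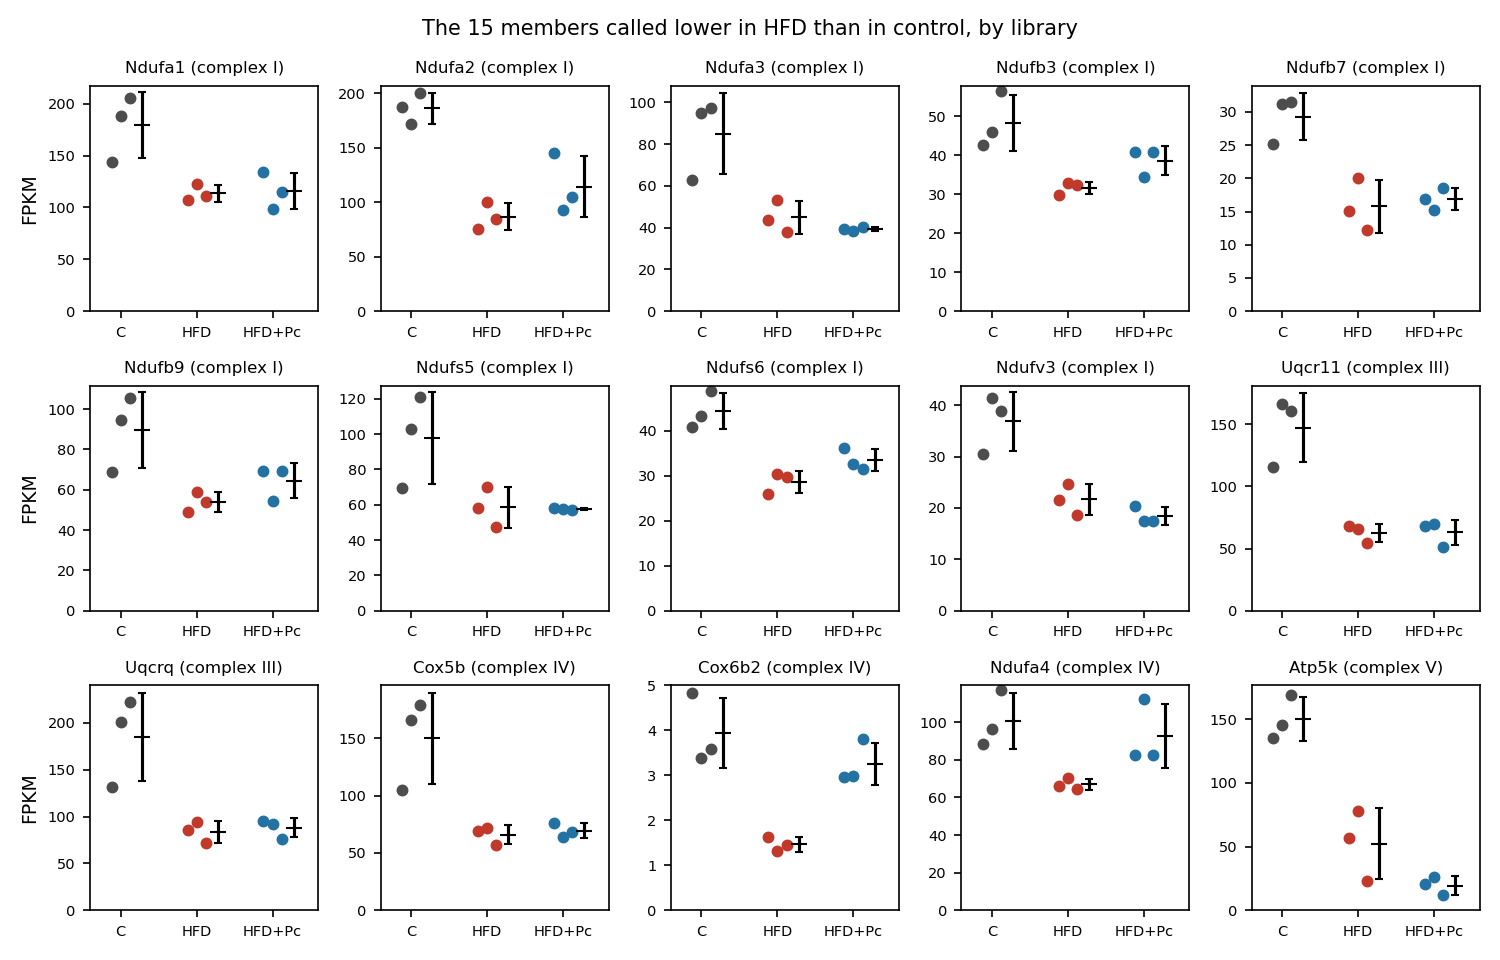
FPKM in each library for the 15 members called lower in HFD than in control (grey control, red HFD, blue HFD with P. cinnamivorans; linear axes from 0), with mean and SD of 3 libraries. Cox6b2, Ndufa4, Ndufb3 and Ndufs6 with the bacterium lie above all HFD libraries, as 18.7% of all tested genes do, and of them only Cox6b2 was called. Atp5k with the bacterium is lower still than the HFD mean of 52.2 FPKM.

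The called members were accessory or supernumerary subunits. In a grouping made after the values were seen, 18 tested members that carry the catalytic or electron-transferring core (7 genes of complex I, the 4 genes of complex II, Cyc1, Uqcrfs1 and the 5 head subunits of complex V) had 0 calls in HFD minus control and 0 at an unadjusted p below 0.05 (limma). Their median was -0.27. The other 67 had 15 calls and a median of -0.40, beside 9.11% of all tested genes called lower. Within complex I the 7 core genes had a median of -0.28 and the other 30 a median of -0.40, with 9 calls. Without control replicate 1 the core had 7 calls (median -0.49) and the other members 41 (median -0.66), beside 13.5% of all tested genes, so the absence of core calls rests on that library.

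Members with short coding sequences tended to lie lower. Across the 82 tested members with a coding sequence, Spearman's rho between coding length and the HFD minus control difference was 0.36, and against exonic length it was 0.45 over 85 members beside 0.04 over 17225 tested genes. These are descriptions across genes, which share the same 9 libraries. The 27 members with coding lengths of 156 to 318 bases had a median of -0.53 and 10 calls, the 28 of 324 to 516 bases had -0.32 and 3 calls, and the 27 of 525 to 2181 bases had -0.25 and 2 calls, beside 9.11% of all tested genes. Without control replicate 1 the medians were -0.68, -0.58 and -0.49, with 19, 14 and 15 calls, beside 13.5%. Many core subunits are among the longer genes, so length and role cannot be told apart here.

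**Figure D5:**
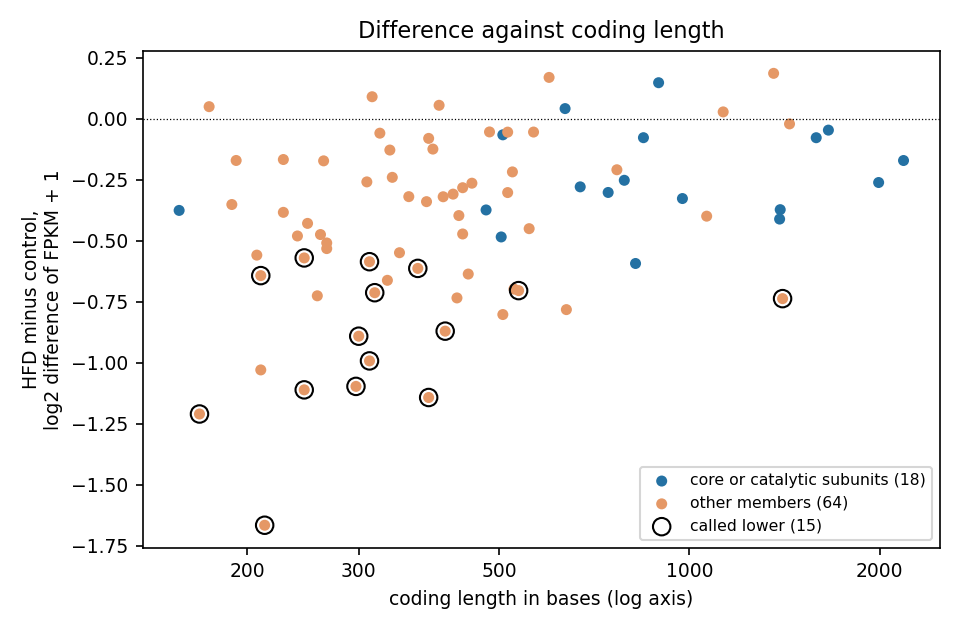
HFD minus control difference, on the log2(FPKM + 1) scale, of each tested member with a coding sequence against its coding length in bases (log axis), with core subunits in blue, other members in orange and called genes ringed. The lowest core point lies at -0.59, and 10 of the 15 ringed genes have coding lengths of at most 318 bases.

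Reads of some members can be shared with near-identical loci. Of 86 members with a coding sequence, 20 had at least 1 other annotated locus with a transcript at 95% identity over 80% of that sequence, most in Atp5l (8), Atp5h (3) and Uqcrb (3). Copies that are not annotated were not searched. Among the called members these were Uqcr11 (2) and Cox5b, Atp5k, Ndufb3 and Ndufs5 (1 each), whose values are therefore uncertain. The median HFD minus control difference was -0.43 in the 20 members with such loci and -0.33 in the 62 tested members without.

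The comparison of HFD with the bacterium against HFD bears on what differed between mice on the same diet with and without gavage of P. cinnamivorans. Cox6b2 was the 1 member called, and it was higher with the bacterium. Of 85 tested members 0 were lower and 1 higher, beside 7.6% lower and 4.54% higher of all tested genes (limma). At an unadjusted p below 0.05 there were 1 lower and 4 higher, beside 4807 of all 17907 tested genes in either direction. The median was 0.08, beside -0.01 for all tested genes, and its sign turned with scaling of each library to the same sum, to -0.12, beside -0.17 for all genes. In 16 members (18.8%) all bacterium libraries were above all HFD libraries, beside 18.7% of all tested genes, and in 3 (3.53%) they were below, beside 20.3%. Cox6b2 was at 3.25 ± 0.477 against 1.46 ± 0.165 FPKM (0.78 on the log2 scale with SE 0.15, adjusted p = 0.0091 by limma), higher in each of the 3 libraries, and it was called in all 18 alternatives in which it was tested.

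Other members with large differences did not pass the test. Atp5g1, which encodes the membrane ring subunit c, measured 29.5, 42.98 and 54.1 in control, 28.4, 34.2 and 35.8 in HFD and 53.7, 46.7 and 63.9 FPKM in HFD with the bacterium (0.72 on the log2 scale with SE 0.22, adjusted p = 0.071 by limma; named after its values were seen). All its bacterium libraries were above the HFD libraries. Atp5k was lower with the bacterium by its mean (-1.29 on the log2 scale with SE 0.43, adjusted p = 0.09 by limma), and the groups overlapped. Ndufc1, an accessory subunit of complex I, had the largest difference there (0.51, limma adjusted p = 0.26), and Sdhb the largest in complex II (0.28, limma adjusted p = 0.6). Cox7a2l, at 99.98 ± 5.87 against 121 ± 7.13 FPKM, was below all HFD libraries in each bacterium library without a call (-0.27, limma adjusted p = 0.23).

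The comparison of HFD with the bacterium against control bears on what still differed from control in that group; it shares the control libraries with the comparison of HFD with control. Ndufa3, Ndufv3, Uqcr11 and Atp5k were called lower, and 0 members higher. That is 4 of 85 (4.71%), beside 0.843% called lower, 0.262% called higher and 1.11% in either direction of all tested genes (limma). With the filter at 5 FPKM in 3 libraries, 6 members were called lower (7.79%) and 0 higher. Of all 8498 genes tested with that filter, 3.88% were called lower and 71 higher. At an unadjusted p below 0.05 there were 27 lower and 1 higher, beside 3590 of all 17907 tested genes in either direction. The median was -0.30, beside -0.01 for all tested genes, with 65 of 85 below 0. In 23 members (27.1%) the bacterium libraries were all below control, beside 11.9% of all tested genes, and in 1, Atp5s, they were all above (7.95 ± 1.30 against 6.16 ± 0.719 FPKM; limma adjusted p = 0.25), beside 9.86%.

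Atp5k fell furthest, to 19.4 ± 7.19 FPKM from 150.04 ± 17.2 (-2.95 on the log2 scale with SE 0.43, adjusted p = 0.037 by limma), which is 0.129 of the control mean. Uqcr11 fell to 62.98 ± 10.1 from 147 ± 27.7 FPKM (-1.21 on the log2 scale with SE 0.19, adjusted p = 0.037 by limma). Ndufa3 fell to 39.3 ± 0.918 from 85.1 ± 19.4 FPKM (-1.07 on the log2 scale with SE 0.19, adjusted p = 0.045 by limma), and Ndufv3 to 18.5 ± 1.74 from 36.9 ± 5.69 FPKM (-0.95 on the log2 scale with SE 0.15, adjusted p = 0.037 by limma). For these 4 genes each bacterium library was below each control library. Their HFD minus control differences were -1.67, -1.21, -0.89 and -0.74. The calls depend on the libraries. Without control replicate 1 there were 30, beside 4.91% of all tested genes called lower, and the median was -0.51. Without bacterium replicate 3 there were 2, beside 0.685%. Without control replicate 2 or 3, HFD replicate 1 or 2 or bacterium replicate 1 or 4 there were 0. In those settings 0% of all tested genes were called lower, or 0.0171% without HFD replicate 2, so the loss was not particular to the members. Sdhd (-0.58, limma adjusted p = 0.24) and Cox6c2 (-1.31, limma adjusted p = 0.16) had the largest differences in complexes II and IV and were not called.

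The 13 subunits encoded in mitochondrial DNA took another course than the nuclear ones. Their summed FPKM was 90119, 98644 and 68080.4 in control, 37719, 31307 and 43905 in HFD and 141639, 73545 and 98284 in HFD with the bacterium, so each HFD library was below all others. In HFD minus control 2 of 13 were called lower (median -1.10), beside 9.11% of all tested genes, and in HFD with the bacterium minus HFD 7 of 13 were called higher (median 1.72), beside 4.54%. In HFD with the bacterium minus control 0 were called, with 4 at an unadjusted p below 0.05 (limma). mt-Nd3, a subunit of the complex I membrane arm, measured 123, 107 and 77.8 in control, 26.2, 31.2 and 45.8 in HFD and 181, 81.2 and 147 FPKM in HFD with the bacterium (-1.56 on the log2 scale with SE 0.32, adjusted p = 0.011 by limma; with the bacterium against HFD 1.92, limma adjusted p = 0.0058). The ratio of mitochondrial to nuclear summed FPKM was 10.8, 7.74 and 4.49 in control, 4.39, 3.29 and 5.01 in HFD and 14.6, 8.01 and 10.6 in HFD with the bacterium. HFD overlapped control through control replicate 3 in this ratio and did not overlap the group with the bacterium.

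Calls among other genes of mitochondrial energy metabolism between HFD and control are read beside 9.11% lower and 10.6% higher of all tested genes (limma). The complex I assembly factors, the tricarboxylic acid cycle, the biogenesis list and membrane organization had 5.88%, 0%, 5% and 6.67% called lower, all under that background. The other assembly factors, the electron carriers and the list of ATP and phosphate transport had 17.1%, 22.2% and 25% called lower, of 35, 9 and 12 genes. Of 17 assembly factors of complex I, 1 was lower, Ndufaf8 (-0.82, limma adjusted p = 0.0054), and 1 higher, Tmem126b (0.47, adjusted p = 0.043). Of 35 assembly factors of the other complexes 6 were lower and 2 higher, with Ttc19, of complex III, at -0.55 (limma adjusted p = 0.0068) and Cox17, a copper chaperone of complex IV, at 0.53 (adjusted p = 0.024). Of 19 genes of the tricarboxylic acid cycle 0 were lower and 1 higher, Idh3a (0.78, adjusted p = 0.04). Of 9 electron carriers and quinone-linked dehydrogenases 2 were lower and 0 higher. Etfb, which carries electrons from fatty acid oxidation toward ubiquinone, measured 19.7, 25.7 and 24.3 in control, 4.54, 4.89 and 4.76 in HFD and 7.13, 5.001 and 8.90 FPKM in HFD with the bacterium (-2.07 on the log2 scale with SE 0.18, adjusted p = 0.00022 by limma), with HFD and control far apart. Of 15 genes of membrane organization 1 was lower, the fusion gene Mfn2 (-0.58, adjusted p = 0.011), and 0 higher.

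Of 20 genes of mitochondrial biogenesis and mitochondrial DNA expression, 1 was called lower in HFD than in control, Esrra, and 2 higher, Ppargc1a and Esrrg, again near the share of all tested genes. Ppargc1a, a coactivator of respiratory chain genes, measured 2.47, 3.29 and 3.57 in control, 11.1, 9.91 and 10.3 in HFD and 4.65, 5.33 and 7.99 FPKM in HFD with the bacterium. It rose in HFD (1.48 on the log2 scale with SE 0.18, adjusted p = 0.0011 by limma) and fell with the bacterium relative to HFD (-0.74 on the log2 scale with SE 0.18, adjusted p = 0.034 by limma), with all 3 HFD libraries above all others. Esrra, a nuclear receptor that acts with it, measured 33.1, 35.9 and 40.8 in control, 25.4, 27.1 and 22.1 in HFD and 21.04, 22.3 and 17.6 FPKM in HFD with the bacterium (-0.54 on the log2 scale with SE 0.14, adjusted p = 0.027 by limma), with each HFD library below each control library. Its relative Esrrg passed the filter on low values only through the HFD libraries and so had to differ, and its calls in this comparison and between the bacterium and HFD groups support nothing. Esrrg had means of 0.227 ± 0.174 FPKM in control, 2.41 ± 0.634 in HFD and 0.154 ± 0.134 with the bacterium. Of 12 genes of ATP and phosphate transport and uncoupling 3 were lower and 1 higher in HFD, with Ak4, a mitochondrial adenylate kinase, at -1.42 and Ckmt1, the mitochondrial creatine kinase, at 1.36 (limma adjusted p = 0.0099 and 0.013).

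With the bacterium against HFD, the calls in these nuclear lists were Ak4 (1.06) and Prodh, proline dehydrogenase (0.60), as higher and, apart from Esrrg, Ckmt1 (-1.76) and Ppargc1a as lower (limma adjusted p of these 4 from 0.0053 to 0.044), beside 4.54% higher and 7.6% lower of all tested genes. Both lists of assembly factors, the tricarboxylic acid cycle and membrane organization had 0 calls there, with 2, 4, 0 and 1 genes at an unadjusted p below 0.05 (limma). Against control, the group with the bacterium was lower in Sdhaf1, an assembly factor of complex II (-0.82), Etfb (-1.62) and Esrra (-0.82), with limma adjusted p from 0.024 to 0.037.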

How the data were processed

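RNA sequencing of colon gave 9 libraries, 3 for each of 3 groups. Groups follow the treatment labels, and replicate numbers follow the titles. The authors deposited 1 table of FPKM values, which are not counts. HISAT2 2.0.5 and the build GRCm39 are named per the submitters' processing notes. Not given in the sources used here are the annotation, the counting tool and its handling of strand and of reads that match several loci. Reads from a gene and a near-identical or antisense partner may therefore be mixed. Symbols, biotypes and lengths came from GENCODE M21, which is on another build, and 52093 of 54491 identifiers had a symbol. Near-identical loci were found with blastn 2.17.0 among the transcripts of that annotation.

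Differences were tested with limma (3.58.1, under R 4.3.3), with a trend of variance on level, on log2(FPKM + 1), with no covariate and Benjamini-Hochberg adjustment over 17907 genes in each of 3 comparisons. The fit was tested on simulated data. The members and the gene lists were chosen with earlier results of these data known, and so was the list of core subunits. Named members were up to 10 called members of each direction with the smallest p, the called member with the smallest p, the most abundant member and the member with the largest difference in each complex, the genes of complex II, Cyc1, and the isoform families of complex IV with Ndufa4 and Ndufa4l2. Of the other lists at most 1 called gene in each direction was named, except that Ppargc1a and Esrrg were both named.

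The lowest FPKM values of a gene in 2 libraries formed ratios of integers (at most 20, with a tolerance of 0.0005 in natural log) in 99.8% to 100% of genes examined. These gave the library sizes used in the deposited scaling, at 0.822 to 1.10 relative to control replicate 1. Such sizes need not equal sequencing depths. Total depth is unknown, so no counting intervals are given. Alternatives were other scalings, a pseudocount of 0.1, other filters on low values, limma without a trend, a fit of 6 libraries, a replicate block and leaving out each library.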

Additional observations from a re-analysis of the deposited data

How the results depend on the processing

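Of the medians over all members, that of HFD with the bacterium minus HFD turned from 0.08 to -0.12 with each library scaled to the same sum. The medians of complexes II and V also turned. In HFD minus control complex II moved from -0.17 to 0.01 with quantile normalization, and complexes II and V from -0.17 and -0.21 to 0.10 and 0.06 with scaling to the same sum, to 0.07 and 0.03 when mitochondrial and immunoglobulin genes were left out of that scaling and to 0.07 and 0.05 without control replicate 3. With the bacterium against control they moved from -0.13 and -0.23 to 0.08 and 0.11 with quantile normalization and to 0.10 and 0.03 without control replicate 3, and complex II to 0.09 with scaling without mitochondrial and immunoglobulin genes. With the bacterium against HFD all 5 complexes were below 0 with scaling to the same sum (-0.17 to -0.01), complex II, at 0.03, turned to -0.09 with the replicate block and -0.06 without bacterium replicate 3, and complex V, at -0.04, turned to 0.07 with quantile normalization and 0.00 without HFD replicate 2. The 15 calls lower in HFD than in control became 6 with the replicate block and 7 to 48 with 1 library left out (7 without HFD replicate 1 or 4, and 48, among them the 15, without control replicate 1). The median, -0.35, was -0.10 with scaling to the same sum and -0.59 to -0.19 with 1 library left out. Of all tested genes 9.11% were called lower in HFD than in control, 4.8% with the replicate block and 4.01% to 13.5% with 1 library left out. With the bacterium against HFD the 1 call became 2 with scaling to the same sum, with or without mitochondrial and immunoglobulin genes, with quantile normalization, in the fit of 6 libraries and with the replicate block, 0 with the filter at 5 FPKM, which leaves out Cox6b2, and 1 to 3 with 1 library left out. Atp5k, lower, was added with scaling to the same sum and with the replicate block. Of all tested genes 11.2% and 4.52% were called lower there. Atp5g1, higher, was added with scaling without mitochondrial and immunoglobulin genes, with quantile normalization and in the fit of 6 libraries. There 843, 1047 and 1484 of all tested genes were called higher. Leaving out HFD replicate 4 added Atp5k, control replicate 3 Atp5g1, and control replicate 1 Atp5g1 and Ndufs4 (higher). The median ranged from 0.03 to 0.13 with 1 library left out. With the bacterium against control the 4 calls became 6 with scaling without mitochondrial and immunoglobulin genes and with the filter at 5 FPKM, 2 with quantile normalization, 0 with scaling to the same sum, without a filter, in the fit of 6 libraries and with the replicate block, and 0 to 30 with 1 library left out (median -0.51 to -0.10). That median, -0.30, was -0.07 with quantile normalization and -0.08 with scaling without mitochondrial and immunoglobulin genes. The 6 calls were 7.06% of the tested members with that scaling, beside 0.496% of all tested genes. They were 7.79% with the filter at 5 FPKM, beside 3.88%, and the 2 with quantile normalization were 2.35%, beside 0.179%. In the settings where 0 members were called against control, 0% to 0.0667% of all tested genes were called lower. Apart from the filter at 5 FPKM, the cause of these changes was not tested. Ndufa2, Ndufb7, Uqcr11 and Uqcrq were called lower in HFD in all 19 alternatives and Cox6b2 in all 18 that held it.

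Same-numbered libraries correlated between -0.16 and 0.19 in their deviations from the group means, and differently numbered ones between -0.17 and 0.15. With 3 libraries a group, whether the numbers pair the libraries cannot be told from this, and the block is given as a setting only. Total depth is unknown, which limits statements on members under 5 FPKM, and 3 libraries a group with control replicate 1 apart limit all counts above.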
